A study of Mus musculus with 4 samples.

Results

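The cells described here are B cells from mouse lungs injured with bleomycin. A cell was chosen by its own transcripts: at least 2 UMIs (unique molecular identifiers, 1 for each captured transcript) of Cd79a and at least 1 of Ms4a1, with 0 UMIs of Cd3e, C1qa, Cdh5, Pdgfra and Epcam. Those 5 genes mark T cells, macrophages, endothelial cells, fibroblasts and epithelial cells. Of 32121 barcodes in the files, 30860 lay within the limits of 200 to 7500 genes and at most 15% mitochondrial UMIs, and 434 of these were B cells.

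The study asks how loss of Tubb3, the gene of beta-III tubulin, bears on lung fibrosis. The 2 Tubb3-/- mice carried a Tubb3-Cre knock-in on both alleles, with Cre placed at the start codon of Tubb3. The 2 WT mice were littermates. All 4 mice were 8 to 11 weeks old and received 0.8 U/kg bleomycin into the trachea, and their lungs were taken 14 days later. Each mouse gave a whole-cell sample depleted of red cells, and a sample depleted of CD31, CD45, EpCAM and TER-119 cells, and the 4 tagged samples of a kind were pooled. The mural cell-enriched pool was made from the depleted cells by sorting on MCAM and PDGFRα. It took the same number of cells without MCAM as of cells with MCAM but no PDGFRα. No mouse without bleomycin is in the series.

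Gene UMIs in the whole-cell libraries came to 42947252 and 41462258 in WT mice 1 and 2, and to 68738958 and 53027290 in Tubb3-/- mice 1 and 2. The mural cell-enriched libraries held 64130648, 51184531, 95036340 and 82310356, in the same order. The 4 values of a gene are given in this order throughout, WT mouse 1, WT mouse 2, Tubb3-/- mouse 1 and Tubb3-/- mouse 2. Tubb3-/- libraries held more UMIs than WT libraries in each pool, and also more cells within the limits (3406, 3119, 4179 and 3456 in the whole-cell pool). Median gene UMIs of a B cell were 4755, 5331, 4985 and 5536 there, and the genotypes overlapped.

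Tubb3 (chr8:123411424-123422015, mm10, GENCODE vM21) was at 1.97, 0.858, 0.275 and 0.335 CPM (UMIs of a gene relative to all gene UMIs, on the CPM scale) over all cells of the whole-cell libraries. In the mural cell-enriched libraries it was at 5.36, 3.70, 0.695 and 0.655 CPM. Both Tubb3-/- mice were below both WT mice in both pools, and the Tubb3-/- libraries still held 18, 17, 62 and 51 Tubb3 UMIs. The B cells held 0 Tubb3 UMIs in all 8 libraries. Y-linked genes were at 241 and 196 CPM in mouse 1 of each genotype and at 8.09 and 6.56 CPM in mouse 2, in the whole-cell libraries. Xist ran the other way, at 20.5 and 16.1 CPM in mouse 1 and 632 and 649 CPM in mouse 2. Mouse 1 of each genotype is thus male by these genes and mouse 2 female. Sex was not a term of the fits between genotypes except where the mouse number was added as a block. The test of B cells against T cells had each mouse as a block.

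B cells recognise antigen through a receptor made of a membrane immunoglobulin and the signalling chains Cd79a and Cd79b. Each B cell expresses either a kappa or a lambda light chain. A resting cell carries IgM and IgD, and an activated one may switch to another isotype, present antigen on MHC class II to T cells, or become an antibody-secreting plasma cell. Lungs hold recirculating follicular B cells from the blood, fewer innate-like B-1 cells, and, after injury, lymphoid aggregates.

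Nearly all B cells came from the whole-cell pool. Its libraries held 168, 67, 121 and 66 B cells, 422 in all, and the mural cell-enriched libraries, depleted of CD45 cells, held 2, 4, 2 and 4. Within each pool 0 barcodes were shared between libraries. Between the pools 59 barcodes were shared, and 3 B cells had a barcode that also occurs in the other pool. Doublets were scored but not removed, and 10 B cells lay among the 5% of cells with the highest scores of their pool.

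The chosen cells carried a median of 9 Cd79a UMIs (2 to 47) and 3 Ms4a1 UMIs (1 to 36). Their median was 5032.5 gene UMIs (1965 to 35170) and 2022.5 genes, with 3.70% mitochondrial UMIs. At the edge of the rule, 11 B cells had exactly 2 Cd79a UMIs and 119 exactly 1 Ms4a1 UMI. Just outside it, 8 cells had 1 Cd79a UMI with Ms4a1, and 62.5% of them had an Ighm UMI. Another 100 cells had at least 2 Cd79a UMIs and no Ms4a1, and of these 82% had a UMI of Pax5, 96% of Ebf1 and 94% of Ighm, so the rule left out cells with the same B cell genes. The 5 genes held at 0 removed 226 of 660 cells, 113 of them through a single UMI over the 5 genes together. The removed cells had a median of 10725 gene UMIs.

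Genes that the rule did not use set these cells apart from T cells. T cells of the same whole-cell libraries, counted by at least 1 UMI each of Cd3e and Cd3d and 0 of Cd79a, Ms4a1 and the other 4 genes, serve as the comparison (973 cells, median 6612 gene UMIs, against a median of 5001 in the 422 B cells). This comparison describes levels, with no test, since the rule chose the cells. Ebf1, a transcription factor that sets up the B lineage, was at 2904 CPM in B cells and 12.6 CPM in T cells. With each cell thinned to 2000 UMIs, 98.1% of B cells and 2.47% of T cells had an Ebf1 UMI. Pax5, which keeps B cell identity, was at 409 and 0.514 CPM, and the surface protein gene Ly6d at 1297 and 22.9 CPM. Sums over marker lists follow the rule in part. The 12 general B cell markers summed to 9324 CPM in B cells and 251 CPM in T cells, with Cd79a and Ms4a1 of the rule among them, and the 10 T cell markers to 45.7 and 4098 CPM, with Cd3e (0 in B cells by the rule) and Cd3d (at least 1 UMI in the T cells) among them.

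Some transcripts of other cells were found in both B cells and T cells. Thinned to 2000 UMIs, the airway gene Scgb1a1 was found in 87.2% of B cells and 82.8% of T cells, the surfactant gene Sftpc in 53.4% and 51.0%, Lyz2 of myeloid cells in 67.2% and 64.3%, and the matrix gene Mgp in 86.9% and 84.2%. Both lymphocyte types carried these 4 genes at like shares. The unthinned levels were less alike. Sftpc was at 374 CPM in B cells and 1206 CPM in T cells, and Lyz2 at 1245 and 2623 CPM. Scgb1a1 ran the other way, at 1330 and 949 CPM. These transcripts are read here as background, which was not tested.

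B cells made up 4.93%, 2.15%, 2.90% and 1.91% of the cells of the whole-cell libraries. Exact Clopper-Pearson 95% intervals were 4.23 to 5.71%, 1.67 to 2.72%, 2.41 to 3.45% and 1.48 to 2.42%. WT mouse 1 stood apart, and the genotypes overlapped. WT mice averaged 3.54% (SD 1.97, 2 mice) and Tubb3-/- mice 2.40% (SD 0.697, 2 mice), a difference of -1.14 percentage points (exact two-sided permutation p = 0.667, where 0.333 is the smallest that 2 mice against 2 can give). Without WT mouse 1 the difference was 0.254, in the other direction, with 1 female WT mouse against a male and a female. Between mice of the same number, and so of the same sex, the Tubb3-/- mouse had the lower share in both pairs. In 2 other settings this held for mouse 1 only. With every cell thinned to 2000 UMIs, mouse 2 had 1.51% in WT and 1.67% in Tubb3-/-, and the difference between genotypes was -0.563. Among cells with a UMI of Ptprc, the gene of CD45, mouse 2 had 3.04% and 3.12%. Intervals cover counting error only.

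B cells per T cell numbered 0.627, 0.435, 0.376 and 0.288. Both Tubb3-/- mice were below both WT mice. WT mice averaged 0.531 (SD 0.136) and Tubb3-/- mice 0.332 (SD 0.0619), with 2 mice each, and the exact two-sided permutation p of 0.333 is the smallest possible here. When every cell was thinned to 2000 UMIs and 1 UMI of each gene sufficed for the B cell rule, the ratios were 0.827, 0.582, 0.594 and 0.487, and the genotypes overlapped. The ratio without WT mouse 1 differed by -0.103 and without WT mouse 2 by -0.295.

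**Figure D1:**
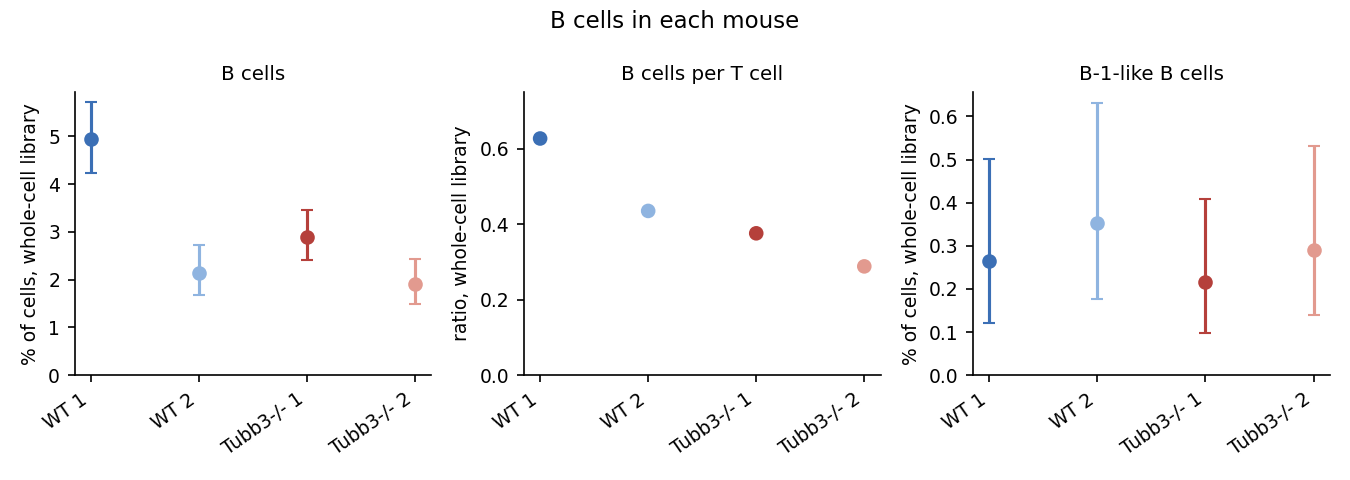
Share of B cells (left) and of B-1-like B cells (right) among the cells of each mouse's whole-cell library, in percent with exact 95% intervals, and B cells per T cell (middle, no interval drawn). WT mouse 1 has the highest B cell share, 4.93%, while the B-1-like shares of the 4 mice lie between 0.215% and 0.353%.

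Ighm (chr12:113418558-113422730), the heavy chain of IgM, had a UMI in 100% of B cells with a median of 9 (95.5% of B cells and 16.9% of T cells at 2000 UMIs), and stood at 1996, 2371, 2129 and 2022 CPM. Ighd (chr12:113406604-113416324), the heavy chain of IgD, stood at 487, 414, 450 and 392 CPM, and Cd79b, the signalling partner of Cd79a, at 723, 613, 635 and 584 CPM. For Ighm and Ighd the genotypes overlapped, and so did they for Cd79b. In T cells of the whole-cell pool Ighm was at 98.6 CPM, Ighd at 1.54 CPM and Cd79b at 6.29 CPM. Thinned to 2000 UMIs, 60.1% of B cells and 1.64% of T cells had a Cd79b UMI, against 84.3% of B cells unthinned.

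By their leading heavy chain, 389 of 433 B cells with at least 2 heavy chain UMIs were led by Ighm and 43 by Ighd, 23, 8, 6 and 6 of them in the 4 mice. Only 1 cell, from WT mouse 1, was led by a switched isotype, Ighg2c, with 2 UMIs of that gene in all. Ighg1 and Ighe had 0 UMIs in the B cells. The switched share was 0.592%, 0%, 0% and 0% (exact permutation p = 1), and a limit of 5 heavy chain UMIs brought it to 0 in every mouse. Igha, the heavy chain of IgA, had a UMI in 2.14% of B cells and 0.925% of T cells at 2000 UMIs.

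The share of B cells with an Ighd UMI, each thinned to 2000 UMIs, was 58.2%, 60.6%, 52.0% and 55.1%. The genotypes did not overlap, with Tubb3-/- mice lower. The difference was -5.85 percentage points, with averages of 59.4% (SD 1.65) and 53.6% (SD 2.15) over 2 mice each and an exact two-sided permutation p of 0.333, the smallest possible. Unthinned, the shares were 82.4%, 81.7%, 79.7% and 84.3% and the genotypes overlapped. They also overlapped under the stricter rule of 3 Cd79a and 2 Ms4a1 UMIs, at 52.5%, 66.7%, 49.4% and 52.8% (exact permutation p = 0.667). T cells had an Ighd UMI in 0.308% of cells at 2000 UMIs.

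Plasma cells lay outside the rule. Among all cells within the limits, 5 carried at least 20 UMIs of Jchain, which joins secreted IgA and IgM, and 0 of them met the rule. The 4 in WT mouse 1 held 13917 Igha UMIs between them, and the 1 in Tubb3-/- mouse 1 held 6690 Ighm UMIs. WT mouse 2 and Tubb3-/- mouse 2 had 0 such cells. In the B cells, Jchain had a UMI in 0.475% of cells against 0.411% of T cells at 2000 UMIs, the level of background, and Tnfrsf17, the BCMA receptor of plasma cells, had 0 UMIs.

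Most B cells had more kappa than lambda light chain UMIs. Igkc (chr6:70726435-70726966), the kappa constant gene, stood at 5711, 7040, 4983 and 5300 CPM, and was the 12th most abundant gene of the B cells. Both Tubb3-/- mice were below both WT mice for Igkc (log2 fold change -0.34, SE 0.16, edgeR unadjusted p = 0.066, not called). Of the lambda constant genes, Iglc1 was at 823, 320, 453 and 363 CPM, Iglc2 at 1056, 952, 877 and 761 CPM and Iglc3 at 450, 373, 379 and 354 CPM. Iglc2 and Iglc3 are near-identical copies, so the split of UMIs between them is uncertain.

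Of 433 B cells with at least 3 light chain UMIs, 47 (10.9%) had more lambda than kappa UMIs, and ties were counted as kappa-led. By mouse these were 24 of 170, 5 of 71, 13 of 123 and 5 of 69, or 14.1%, 7.04%, 10.6% and 7.25%. WT mouse 1 was highest, the genotypes overlapped (exact two-sided permutation p = 1), and without WT mouse 1 the difference between genotypes turned from -1.67 to 1.87 percentage points. In lambda-led cells Iglc1 gave 45.0% of light chain UMIs, Iglc2 35.1% and Igkc 13.5%, with a median of 1 Igkc UMI a cell.

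The 386 kappa-led cells had a median of 33 Igkc UMIs, and they also carried lambda transcripts. Iglc2 had a UMI in 82.1% of them, with a median of 3, and gave 9.90% of their light chain UMIs, while Iglc3 had a UMI in 72.3% and Iglc1 in 36.0%. In T cells of the same libraries Iglc2 had a UMI in 0.308% of cells at 2000 UMIs, against 62.0% of all B cells so thinned. The Iglc2 share in kappa-led cells was 78.1%, 83.3%, 82.7% and 89.1% by mouse. All 4 mice showed it. Whether these UMIs come from transcripts of an unrearranged locus or from other RNA was not tested. Only 150 of the 433 cells (34.6%) had at least 90% of their light chain UMIs from 1 chain, and 129 cells have at least 10 UMIs of each chain.

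**Figure D2:**
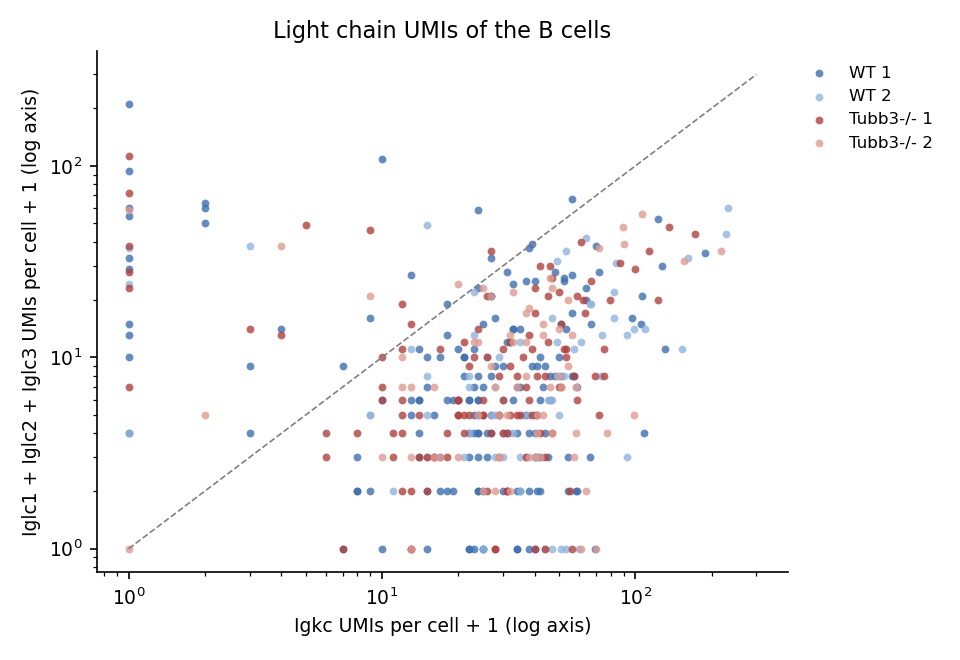
UMIs of the kappa gene Igkc against the summed UMIs of the lambda genes Iglc1, Iglc2 and Iglc3 in each B cell, both plus 1 on log axes, with points colored by mouse and a dashed line at equal counts. The 47 cells above the line are lambda-led, and most of the 386 kappa-led cells, on or below it, still hold lambda UMIs.

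Variable genes were sparse in these 3-prime libraries. Of the heavy chain V genes, 56 of 185 had a UMI, with 111 UMIs in all. Kappa V genes had 264 UMIs from 60 of 160 genes, led by Igkv1-117 (39), Igkv1-110 (20) and Igkv6-20 (16). All 3 lambda V genes were found, with 50 UMIs, 25 of them of Iglv1.

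The signalling chain behind the receptor was present throughout. Bank1, an adaptor of the receptor, was at 1243 CPM in B cells and 2.57 CPM in T cells, and the kinase Syk (chr13:52583173-52648792), which binds the receptor's signalling chains, at 708 and 24.1 CPM. The kinase Lyn, also a myeloid gene, was at 1094 CPM in B cells, 154 CPM in T cells and 571 CPM in C1qa macrophages. Blnk, the linker that Syk phosphorylates, was at 238, 0.770 and 133 CPM in those 3 classes. Among the inhibitory receptors, Cd22 was at 99.1 CPM in B cells and 2.57 CPM in T cells, and Siglecg at 132 and 1.93 CPM. The receptor for the survival factor BAFF, Tnfrsf13c, was at 74.8 and 0.642 CPM. The chemokine receptor Cxcr5, which leads B cells into follicles, was at 213 and 7.96 CPM, and Ccr7, which T cells share, at 541 and 255 CPM. Il12a, a cytokine subunit gene, was at 18.8 CPM in B cells and had 0 UMIs in T cells and C1qa macrophages.

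MHC class II transcripts outnumbered those of the receptor, whose 8 listed genes summed to 12276 CPM. The 10 listed genes summed to 20377 CPM in B cells, 22321 CPM in C1qa macrophages and 1470 CPM in T cells. Cd74, the invariant chain, was at 10034, 10225 and 624 CPM, and H2-Aa (chr17:34282744-34287823), a chain of the peptide-presenting molecule, at 3331, 3900 and 242 CPM. The genes of H2-O, which restrains peptide loading, ran differently. H2-Ob was at 383 CPM in B cells, 5.71 CPM in C1qa macrophages and 12.5 CPM in T cells, and H2-Oa at 136, 1.90 and 8.09 CPM. H2-DMb2, a chain of the peptide-loading molecule, was at 353, 5.71 and 3.59 CPM, whereas its near-identical neighbour H2-DMb1 was at 119, 320 and 25.9 CPM, with the division of UMIs between these 2 copies uncertain.

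By mouse, H2-Aa in B cells was at 3645, 3219, 2639 and 3707 CPM. H2-Ab1 was at 3082, 2433, 2379 and 3101 CPM, and H2-Eb1 at 2958, 2691, 2229 and 3345 CPM. Tubb3-/- mouse 1 was lowest and Tubb3-/- mouse 2 highest for all 3 genes, so the genotypes overlapped. Ciita (chr16:10480059-10528418), the coactivator that drives class II transcription, was at 71.1, 36.9, 109 and 86.6 CPM. The genotypes did not overlap, with Tubb3-/- mice higher (log2 fold change 0.77, SE 0.28, edgeR unadjusted p = 0.025, adjusted p = 0.951, not called).

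Class II genes are expressed together in B cells, but some part ways in macrophages. Promoters are shown for the 6 listed genes that hold the motif below in the stretch shown, so the motif chose this set. The sequences are from RefSeq (GRCm38.p6), each 80 bases long, from 110 to 31 bases before the gene's RefSeq start, 5′ to 3′ on the strand of the gene. Capitals mark TGATTGG, the core of the Y box of class II promoters, which was searched on both strands of the window from 250 bases before to 50 after the start, and which was picked after several motifs had been tried.
H2-Aa (chr17:34287854-34287933, minus strand): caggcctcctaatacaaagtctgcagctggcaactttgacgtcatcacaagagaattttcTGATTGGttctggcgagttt
H2-Eb1 (chr17:34305757-34305836, plus strand): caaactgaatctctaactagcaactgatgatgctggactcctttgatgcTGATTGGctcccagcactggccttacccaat
H2-DMb1 (chr17:34153081-34153160, plus strand): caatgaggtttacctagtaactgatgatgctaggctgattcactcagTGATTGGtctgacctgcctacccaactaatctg
H2-DMb2 (chr17:34145139-34145218, plus strand): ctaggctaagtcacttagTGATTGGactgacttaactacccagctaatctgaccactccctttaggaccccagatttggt
H2-Oa (chr17:34092269-34092348, plus strand): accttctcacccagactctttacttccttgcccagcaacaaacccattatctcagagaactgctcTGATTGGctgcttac
H2-Ob (chr17:34238795-34238874, plus strand): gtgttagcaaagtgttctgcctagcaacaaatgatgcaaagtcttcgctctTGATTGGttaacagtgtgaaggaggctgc

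The motif lay 45 to 92 bases before the start in these 6 genes. Of the 10 listed genes, 7 were in the table, and H2-DMa was the 1 without the motif. H2-Ab1, Cd74 and Ciita were not in the table. Of all 32851 promoters, 2568 (7.82%) held it. The 6 genes chosen by the motif include class II genes that macrophages share with B cells (H2-Aa, H2-Eb1). They also include some at low levels in macrophages (H2-Oa, H2-Ob, H2-DMb2).

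Clustering of the 434 cells gave 9 clusters, numbered by size, at a resolution of 0.8 that was chosen after 0.5, 1.0 and 1.5 had also been tried. A cluster against the other B cells is a description, with no test, because expression in the same cells formed it. Immunoglobulin, mitochondrial and sex-linked marker genes were left out of the clustering. Clusters 1 to 6 held 65, 65, 65, 64, 56 and 52 cells and shared the general B cell genes. Cluster 7 held 45 cells, and clusters 8 and 9 held 11 each.

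**Figure D3:**
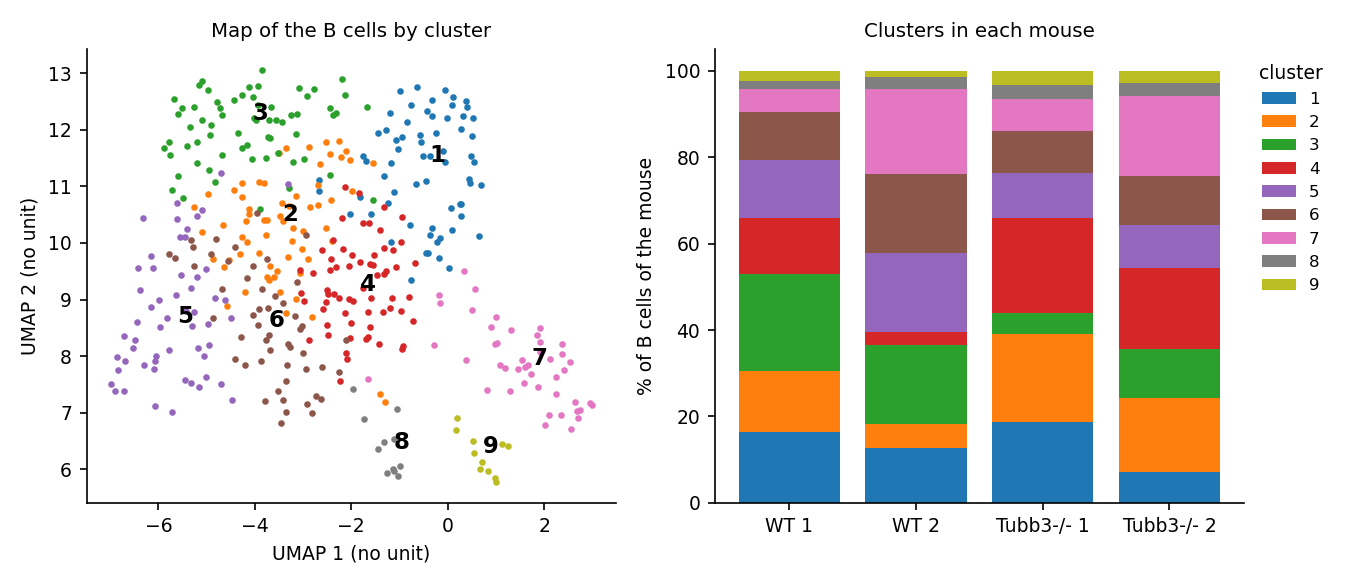
Map of the 434 B cells by their expression (left, UMAP axes without unit), colored and numbered by cluster, and the percent of each mouse's B cells in each cluster (right, bars from 0 to 100). Cluster 7 lies apart from clusters 1 to 6 and makes up 5.29% and 19.7% of the B cells of WT mice 1 and 2 and 7.32% and 18.6% of those of Tubb3-/- mice 1 and 2.

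Cluster 7 was B-1-like. Of the 9 listed B-1 markers, 9 were higher than in the other B cells, by a median of 1.53 on the log2 scale, and 3 (S100a6, Fcrl5 and Ctla4) were among its 10 leading genes. Of the 7 follicular markers, 1 was higher, with a median of -1.17. Of the 8 marginal zone markers 4 were higher (median 0.01), and of the 7 memory and T-bet markers 5 (median 0.15). Of the 11 division genes 10 were higher (median 0.21), though only 1 was found in at least 20% of its cells. The gene with the highest fold was Lmo7 (chr14:101729957-101934710), at 258 CPM against 7.71 CPM, found in 57.8% of its cells and 2.57% of the other B cells. Sox5, a transcription factor gene, was at 636 against 71.7 CPM. The cells had a median of 9889 gene UMIs, against 4166 to 5545 in clusters 1 to 6.

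The IgM and IgD levels of cluster 7 parted from those of the other B cells in every mouse. Clusters 8 and 9 are left out of the other B cells here. Ighm was at 4103, 3214, 3714 and 3226 CPM in cluster 7 and at 1904, 2002, 2242 and 2048 CPM in the others. Ighd was at 121, 171, 171 and 172 CPM against 591, 569, 544 and 574 CPM. All 4 mice had higher Ighm and lower Ighd in cluster 7.

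Other genes divided the same way. Fcer2a, the gene of CD23 on follicular B cells, was at 12.1, 5.71, 21.4 and 6.88 CPM in cluster 7 and at 162, 186, 170 and 247 CPM in the others. Plac8, listed here with the marginal zone markers and not the B-1 markers, was at 1689, 1604, 2269 and 2057 CPM against 408, 544, 496 and 659 CPM. The 4 mice did not overlap between the 2 sets for either gene. S100a6, a calcium-binding protein gene, was at 4393, 2061, 417 and 2786 CPM in cluster 7, lowest in Tubb3-/- mouse 1, and at 84.6, 87.8, 90.03 and 81.1 CPM in the others. Bhlhe41, a transcription factor that B-1 cells need, was at 84.5, 45.7, 21.4 and 55.0 CPM against 3.51 to 6.79 CPM. Cd5, which divides B-1 cells into subsets, was at 12.1, 17.1, 10.7 and 0 CPM, from 5 UMIs, so its level was hardly measurable. All 4 UMIs of Ighg3 outside the mixed clusters lay in cluster 7, in 4.44% of its cells.

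**Figure D4:**
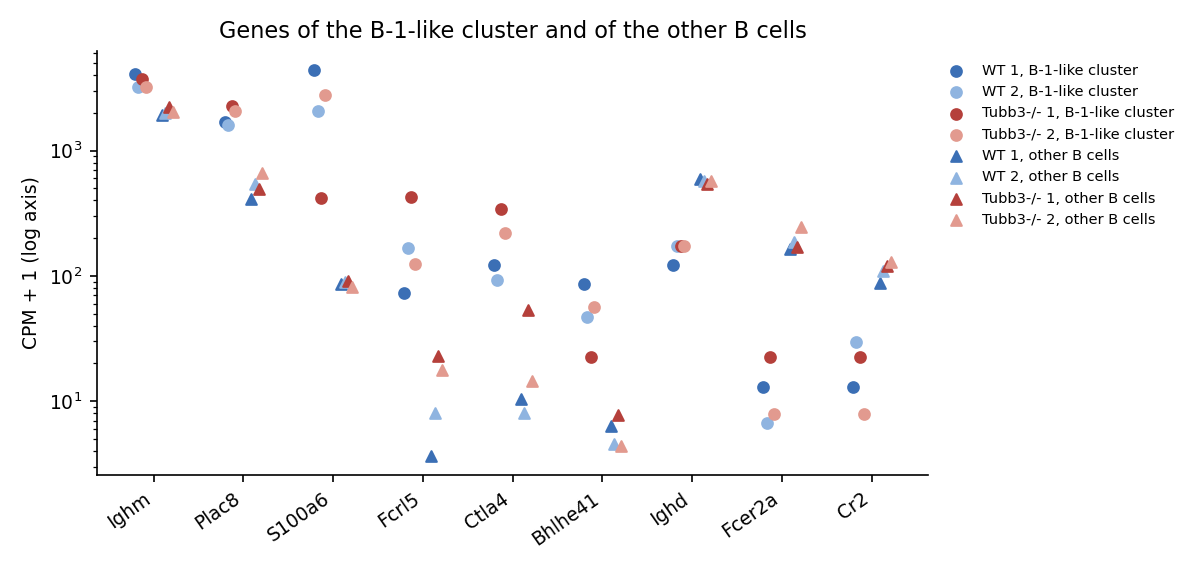
CPM plus 1 (log axis) of 9 genes in the B-1-like cluster 7 (circles) and in the other B cells without clusters 8 and 9 (triangles), 1 point per mouse. Ighm, Plac8, S100a6, Fcrl5, Ctla4 and Bhlhe41 are higher in the cluster in every mouse, and Ighd, Fcer2a and Cr2 are lower in every mouse.

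Per whole-cell library the B-1-like cells made up 0.264%, 0.353%, 0.215% and 0.289% of all cells (9, 11, 9 and 10 cells), with exact 95% intervals of 0.121 to 0.501%, 0.176 to 0.630%, 0.0985 to 0.408% and 0.139 to 0.531%. The 4 intervals overlap. The B cells outside clusters 7, 8 and 9 made up 4.46%, 1.70%, 2.49% and 1.505%, and there WT mouse 1, with an interval of 3.79 to 5.21%, stood above the other 3. Of the B cells of a mouse in both pools together, cluster 7 made up 5.29% and 7.32% in the males and 19.7% and 18.6% in the females. Of the 12 B cells in the mural cell-enriched pool, 6 were in cluster 7, all from the females. In the whole-cell pool alone, cluster 7 held 9 of 168 and 9 of 121 B cells in the males and 11 of 67 and 10 of 66 in the females. At resolutions of 0.5, 1.0 and 1.5, 45, 45 and 44 of its 45 cells stayed together, though at 0.5 they formed 1 cluster of 56 cells with the 11 of cluster 9.

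Clusters 1 to 6 were less stable than cluster 7 at resolutions of 1.0 and 1.5. At 1.0, 31 of the 65 cells of cluster 2 and 33 of the 56 of cluster 5 stayed together. Clusters 1 and 3 kept 61 of 65 cells each there and cluster 4 kept 62 of 64. At 1.5, 28 of the 64 of cluster 4 stayed together. At 0.5 most cells of clusters 2, 3, 4 and 6 fell into 1 cluster of 260. Cluster 1 had higher levels of all 12 general B cell markers than the other B cells (median log2 0.59). Its leading genes included Cecr2, Klhl14, Spib, a transcription factor of B cells, and Vpreb3, a gene of early B cells. It had 14 lambda-led cells of 64 (21.9%), or 8 of 28, 1 of 9, 5 of 23 and 0 of 4 by mouse. Cluster 2 was led by Slc15a2, Gadd45a and Klf2, a lymphocyte transcription factor, at 1834 CPM against 760 CPM. Its 10 leading genes also held Fcer2a and the heat shock genes Hspa1b and Dnajb1, and 14 of the 18 immediate-early and dissociation genes were higher (median log2 0.45). Cluster 6 was led by Scgb1a1, the airway transcript read above as background, at 3217 CPM against 1108 CPM, and by Lyn.

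Cluster 5 was led by activation genes. Egr3, Nr4a3, Mir155hg, Bcl2a1b, Egr1, Nr4a1 and Myc, genes that B cells turn on soon after receptor signalling, were among its 10 leading genes. Egr3 was at 393 CPM against 41.2 CPM in the other B cells and found in 58.9% of its cells against 15.6%. Of the 9 costimulation and activation genes, 8 were higher, by a median of 0.57 on the log2 scale, against 6 each in clusters 2 and 6 (medians 0.27 and 0.13). The immediate-early list, which also responds to tissue dissociation, had 12 of 18 genes higher (median 0.44), fewer than in cluster 2 and than the 17 of the mixed cluster 8, and whether the cells were activated in the lung or on the way was not tested.

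Cluster 3 was led by Gm16341, a transcript antisense to Armc9, and Tmem108, and held 38, 13, 6 and 8 cells of the 4 mice. These were 22.4%, 18.3%, 4.88% and 11.4% of the B cells of each mouse, so both WT mice were above both Tubb3-/- mice. Gpr132, compared between genotypes below, was at 410 CPM in cluster 3 against 183 CPM in the other B cells. Cluster 4 was led by Ccl5, AW112010 and the heat shock gene Hspa1a, and held 22, 2, 27 and 13 cells. Its Ccl5 came from few cells. Of 337 Ccl5 UMIs in all B cells, 275 lay in 3 cells of Tubb3-/- mouse 1. The cytotoxic gene Gzma had 161 of its 177 UMIs in 3 cells of the same mouse, and the 6 listed NK cell markers summed to 18.8, 18.5, 319 and 12.9 CPM.

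Clusters 8 and 9 carried programs of other cell types. Cluster 8 was led by Acta2 (10309 CPM against 80.7 CPM), Tagln and Myl9, genes of smooth muscle. Of the 6 mural markers, 5 were higher in it (median log2 2.50), and of the 9 fibroblast markers, 8 (median log2 3.05). Cluster 9 was led by Cxcl2, S100a9 and Il1b, genes of myeloid cells. Their median depths were 14542 and 23220 gene UMIs, and 2 and 4 of their cells were among the marked doublets. The 22 cells made up 5.07% of the B cells and 14.4% of their UMIs. They are called mixed clusters below. They remain in every comparison unless stated, since the rule takes them in. The setting without them was chosen after seeing the data.

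Few B cells were dividing. The share with at least 2 of 7 division genes was 1.18%, 2.82%, 4.07% and 0%, and the genotypes overlapped (exact two-sided permutation p = 1). Without the mixed clusters it was 0.613%, 2.94%, 1.74% and 0%. With at least 1 of the genes the share was 9.41%, 11.3%, 15.4% and 11.4%, where the genotypes did not overlap (difference 3.10 percentage points, exact permutation p = 0.333, the smallest possible). Mki67, a gene of dividing cells, was at 6.28, 18.5, 20.5 and 3.68 CPM, in every mouse below the 67.5 CPM of all T cells.

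Between genotypes, the summed counts of all B cells of a mouse were compared for 7309 genes. Of the 10 named genes higher in Tubb3-/- B cells, 9 had most of their UMIs in the mixed clusters, and the 10 lower ones had at most 11.9% there. edgeR called 0 genes (adjusted p under 0.05, 0%), with 239 higher (3.27%) and 134 lower (1.83%) at an unadjusted p under 0.05, and DESeq2 also called 0, with 74 higher and 16 lower at that p. Both mice of a genotype lay above both of the other for 1363 genes higher (18.6%) and 1161 lower (15.9%) in Tubb3-/- mice. The lowest adjusted p was 0.725, and with no filter on low counts 108 of 16813 genes were called. Without WT mouse 1, 33 genes were called, without Tubb3-/- mouse 1 34, without Tubb3-/- mouse 2 64 and without WT mouse 2 0.

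Among the lower genes, Gm16341 (chr1:86275509-86301375, minus strand), the antisense transcript that led cluster 3, was at 124, 80.0, 47.1 and 47.9 CPM. Both Tubb3-/- mice were below both WT mice (log2 fold change -1.17, SE 0.26, adjusted p = 0.725 by edgeR, not called), and without the mixed clusters the value was -1.10. It overlaps Armc9 on the other strand, so its counts are uncertain. Xylt1 (chr7:117380979-117673580), whose enzyme starts the sugar chains of proteoglycans, was at 599, 576, 380 and 378 CPM. The mice of a genotype lay close together and the genotypes did not overlap (log2 fold change -0.66, SE 0.16, adjusted p = 0.725 by edgeR, not called). It was found in 354 B cells, and without the mixed clusters the value was -0.69.

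Stim1 (chr7:102267806-102437319), the calcium sensor that opens the store-operated channel after receptor signalling, was at 168, 125, 95.4 and 79.2 CPM. The genotypes did not overlap (log2 fold change -0.78, SE 0.21, adjusted p = 0.755 by edgeR, not called). Gpr132, a receptor for lipids, was at 262, 228, 129 and 168 CPM (log2 fold change -0.76, SE 0.20, not called), and Arid4b, a chromatin regulator, at 358, 367, 249 and 232 CPM (log2 fold change -0.62, SE 0.17, not called). For both of these the Tubb3-/- mice were below the WT mice. The other 5 were Cep57, of the centrosome (-0.85), Slc7a1, a transporter of basic amino acids (-0.87), Zfp64 (-1.49), Mysm1, a histone deubiquitinase (-0.80), and Wdr74 (-1.35). Cells of the mixed clusters gave 4.94% to 11.9% of the UMIs of these 10 genes.

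Of the 10 higher genes, 9 had over 50% of their UMIs in the 22 cells of the mixed clusters, against 393 of all 7309 genes tested (median 13.5%). Cacnb2, a calcium channel subunit of muscle, was at 7.32, 22.6, 152 and 55.3 CPM and had 89.7% of its UMIs there, and 60.9% in a single cell. Tubb3-/- mice were above WT mice without overlap (log2 fold change 2.99, SE 0.58, adjusted p = 0.725 by edgeR, not called), and without the mixed clusters its 18 UMIs were too few to test. Psap, which encodes the precursor of the saposins of the lysosome, was at 289, 226, 447 and 573 CPM, with a log2 fold change of 0.95 that became 0.19 without them. Limch1, with 45.4% of its UMIs in 1 cell, went from 2.24 to 0.02, Lhfp from 1.61 to 0.09, Plekha5 from 2.09 to 1.48 and Plbd1 from 1.72 to 1.12. Prkch (1.71), Nr2f2 (2.19) and Trerf1 (2.61, 53.1% of its UMIs in 1 cell) were not testable without the mixed clusters.

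Marcks (chr10:37133375-37138920), a membrane-bound target of protein kinase C, was the exception, with 28.1% of its UMIs in the mixed clusters and UMIs in 122 cells. It was at 69.0, 53.3, 127 and 122 CPM. The genotypes did not overlap, with Tubb3-/- mice higher (log2 fold change 0.97, SE 0.21, adjusted p = 0.725 by edgeR, not called). Without the mixed clusters it was at 58.0, 50.01, 117 and 86.1 CPM, with a log2 fold change of 0.91 (SE 0.25, adjusted p = 0.889 by edgeR).

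**Figure D5:**
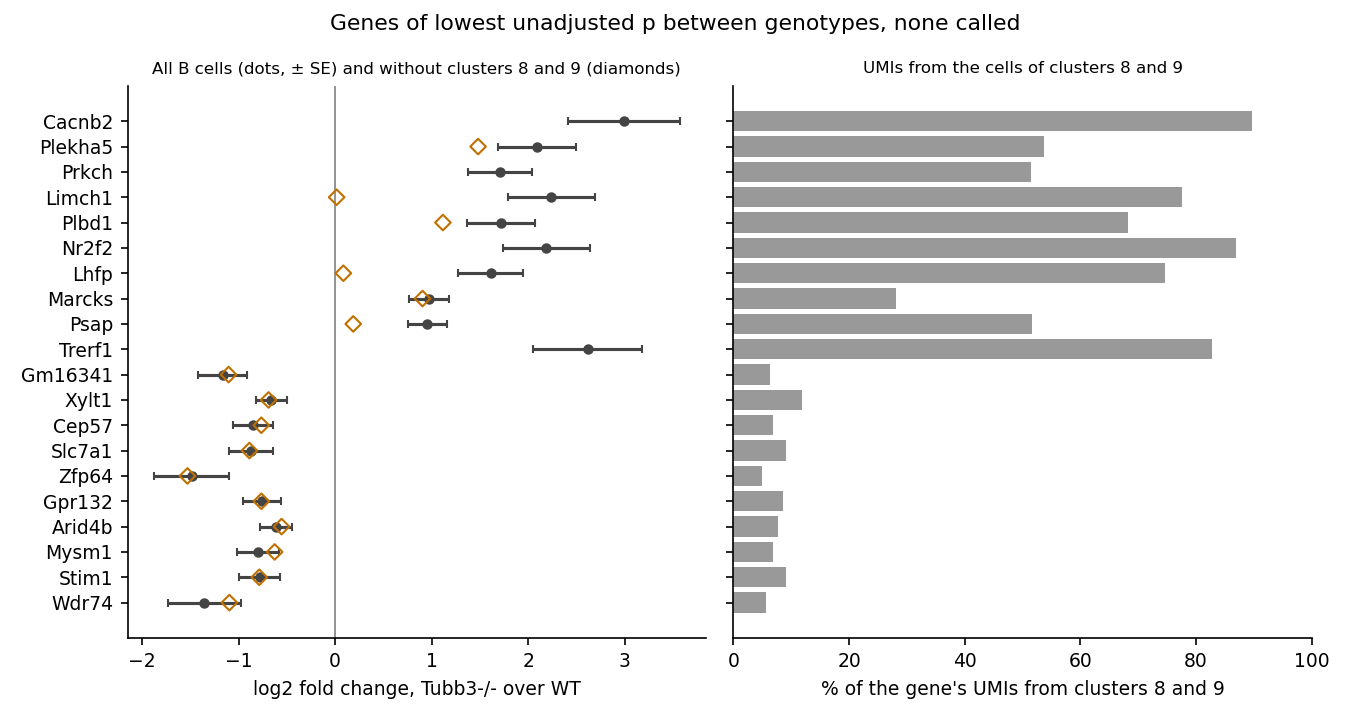
Log2 fold change, Tubb3-/- over WT, of the 20 named genes in all B cells (dots with SE from edgeR, 2 mice per genotype) and without clusters 8 and 9 (diamonds, absent where the gene was too low to test), with the percent of each gene's UMIs from those clusters (right). The 10 higher genes take 28.1% to 89.7% of their UMIs from clusters 8 and 9 and the 10 lower genes 4.94% to 11.9%, and 0 of the 20 were called.

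By gene list, edgeR called 0 members of any of the 30 lists, as it called 0 genes at all. The median log2 fold change of all genes tested was -0.01. The 8 genes of the receptor complex were 0 higher and 8 lower, with a median of -0.21. The genotypes did not overlap for Igkc and Iglc2 (15.9% of all genes tested were lower without overlap). They did not overlap for Cd79a either, but it is a gene of the rule, so nothing is read from its level. The 12 general B cell markers were 1 higher and 11 lower (median -0.14). Cd79a and Ms4a1 of the rule are among them and did not overlap, so this count follows the rule in part. The 13 receptor signalling genes were 3 higher and 10 lower (median -0.09). The tilts varied with the setting. With no gene required to be at 0 the general markers were 0 higher and 12 lower (median -0.23) and the signalling genes 1 and 12 (median -0.19). Under the stricter rule the general markers were 5 higher and 7 lower (median -0.05) and the signalling genes 6 and 7 (median 0.00). Without the mixed clusters the counts were 6 higher and 6 lower (median -0.01) and 7 higher and 6 lower (median 0.00), and the receptor complex had 2 higher and 6 lower (median -0.08). In at least 1 alternative setting the median also changed sign for the heavy chain isotypes, inhibitory receptors, costimulation genes, cytokines, interferon gamma genes, division genes, marginal zone, germinal center and memory markers, and mural, endothelial and epithelial markers, so their directions below are not firm.

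Of 16 transcription factors of B cells, 5 were higher and 11 lower (median -0.14). Mef2c (chr13:83504034-83667080), which supports B cell growth after receptor signalling, was at 1695, 1549, 1391 and 1171 CPM. The Tubb3-/- values lay below the WT values (log2 fold change -0.37, SE 0.15, edgeR unadjusted p = 0.039, adjusted p = 0.951, not called). Pax5 (430, 398, 433 and 352 CPM) and Ebf1 (3248, 2597, 2781 and 2531 CPM) overlapped between genotypes. The BAFF receptor and survival genes were 1 higher and 6 lower of 7 tested (median -0.22), the inhibitory receptors and phosphatases 3 and 3 of 6 (median 0.10), the class II genes 2 and 8 of 10 (median -0.06), and the homing receptors 4 and 8 of 12 (median -0.12).

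Jun was at 312, 283, 402 and 466 CPM and Hspa1b, a heat shock gene with the near-identical copy Hspa1a, at 211, 152, 282 and 265 CPM, and in both the Tubb3-/- mice were above the WT mice. Nr4a1, a marker of receptor signalling, was at 470, 486, 384 and 363 CPM, with the Tubb3-/- mice below. Of the 18 immediate-early and dissociation genes, 11 were higher and 7 lower (median 0.16), with 5 higher and 1 lower at an edgeR unadjusted p under 0.05 (3.27% and 1.83% of all genes tested). When no gene had to be at 0, 5 were higher and 13 lower (median -0.19), so the tilt of this list turned with the rule. Among the 9 costimulation genes (4 higher, 5 lower, median -0.06), Myc was at 115, 109, 153 and 153 CPM (log2 fold change 0.42, SE 0.18, unadjusted p = 0.044 by edgeR, not called).

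In the type I interferon list 1 mouse stood apart. Its genes summed to 2498, 3768, 2557 and 2634 CPM. WT mouse 2 was highest, and so it was for Ifi27l2a, at 279, 1013, 372 and 472 CPM. Of 13 tested, 4 were higher and 9 lower in Tubb3-/- mice (median -0.21), and of 6 interferon gamma genes, which summed to 458, 550, 541 and 637 CPM, 4 were higher and 2 lower (median 0.16). Mx1, on the type I list, is not among the genes of the files under that name.

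Lists of B cell states were tested in part. The 7 follicular markers were 2 higher and 5 lower (median -0.16), the marginal zone markers 5 and 2 of 7 (median 0.18) and the B-1 markers 3 and 2 of 5 (median 0.26). For the B-1 markers the size was not firm. They were 5 higher and 0 lower (median 0.67) in whole-cell libraries only, and the median was 0.009 without the mixed clusters. The plasma cell markers were 1 and 4 of 5 (median -0.19) and the memory and T-bet markers 3 and 1 of 4 (median 0.41). Ctla4, an inhibitory receptor also found in B-1 cells, was at 17.8, 39.0, 77.3 and 68.1 CPM, without overlap between genotypes and higher in Tubb3-/- mice (log2 fold change 1.44, SE 0.38, adjusted p = 0.742 by edgeR, not called). T cells held 710 CPM of Ctla4. Xbp1, a factor of antibody secretion, was at 51.3, 57.4, 32.6 and 29.5 CPM (log2 fold change -0.81, SE 0.31, adjusted p = 0.951 by edgeR, not called). Of the germinal center markers 1 of 8 was tested, Bcl6 (0.61), of the heavy chain isotypes 2 of 8, both lower (median -0.11), of the division genes 4 of 11 (3 higher, median 0.20), and of the cytokines 5 of 11 (1 higher, median -0.10).

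The 9 fibroblast markers summed to 1974, 1793, 1801 and 4857 CPM, with Mgp the most abundant and Pdgfra, held at 0 by the rule, at 0. Tubb3-/- mouse 2 stood apart. Of 8 tested, 7 were higher (median 1.04), with Col1a1, Col3a1, Fn1 and Sparc at an edgeR unadjusted p under 0.05 (3.27% of all genes tested were higher at that p). Without the mixed clusters the sums were 1745, 1720, 1589 and 2413 CPM, and 5 were higher and 3 lower (median 0.21), with 0 higher and 1 lower at that p.

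The macrophage, monocyte and neutrophil markers, led by Lyz2, summed to 2400, 1498, 3296 and 2263 CPM, and to 1282, 1148, 1356 and 1414 CPM without the mixed clusters, with C1qa at 0 by the rule. Of 8 tested, 7 were higher (median 0.53), but 4 of 8 (median -0.12) without doublets and 4 of 12 (median -0.83) with no gene required to be at 0, so the direction turned. The mural markers summed to 1246, 170, 815 and 144 CPM, 96.2% of it Acta2 and Rgs5 at 0, and to 77.3, 87.0, 85.0 and 113 CPM without the mixed clusters. Of the endothelial markers 3 were tested (2 higher, median 0.02), of the epithelial 4 (3 higher, median 0.22), of the dendritic 1 (Itgax, 0.91), of the mural 1 (Acta2, -0.56) and of the erythroid 1 (Hbb-bs, -1.12), and of the T and NK cell markers 0. The part of these cells' RNA in the differences between genotypes was not tested beyond leaving out the 2 clusters.

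Whether a genotype difference of B cells differed from that of T cells of the same mice was tested with the interaction of genotype and cell class over 9875 genes. The B and T cells of a mouse share the animal, so each mouse was a block in this test, beside the cell class. Csrp2 (chr10:110919789-110939622), a LIM domain protein gene, was at 110, 67.7, 30.2 and 53.4 CPM in B cells and at 21.1, 14.1, 40.3 and 43.2 CPM in T cells. Tubb3-/- mice were below WT mice in B cells and above them in T cells. The log2 fold changes were -1.19 in B cells and 1.16 in T cells, and their difference was -2.38 (SE 0.38, adjusted p = 0.311 by edgeR, not called), with 46.4% of the B cell UMIs from the mixed clusters. edgeR called 0 genes (0%), with 242 higher (2.45%) and 179 lower (1.81%) at an unadjusted p under 0.05, and DESeq2 called 0 (70 higher and 24 lower). Without WT mouse 1 9 genes were called, without Tubb3-/- mouse 1 84, without Tubb3-/- mouse 2 64, and with no filter on low counts 92.

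Of the other named genes of this test, Plbd1 (3.08), Plekha5 (2.43), Psap (1.14), Prkch (1.69) and Naaa (2.48) had a higher difference in B cells, with over 50% of their B cell UMIs in the mixed clusters. Icam1, an adhesion molecule, was at 47.1, 45.1, 26.6 and 22.1 CPM in B cells and at 75.6, 73.4, 114 and 74.9 CPM in T cells (difference -1.27, SE 0.34, adjusted p = 0.806 by edgeR, not called). Faim, an inhibitor of Fas-induced death, was at 32.4, 43.1, 15.7 and 18.4 CPM in B cells and at 64.3, 50.8, 97.2 and 69.2 CPM in T cells (difference -1.65, SE 0.44, not called). For both genes the Tubb3-/- mice were below the WT mice in B cells. Zdhhc18 differed by -0.96, and Ccl21a by -2.87 with 71.6% of its B cell UMIs in 1 cell of WT mouse 1.

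By list, only lists whose members were all tested in B cells alone and that hold no gene of the rules are given for this test. Here higher means that the log2 fold change in B cells was above that in T cells. In B cells alone the follicular markers were 2 higher and 5 lower (median -0.16). The costimulation genes were 1 higher and 8 lower of 9 (median -0.21, all genes tested 0.01), the receptor signalling genes 4 and 9 of 13 (median -0.20), the follicular markers 6 and 1 of 7 (median 0.39), the transcription factors 8 and 8 of 16 (median -0.03), the class II genes 5 and 5 of 10 (median 0.10) and the immediate-early genes 9 and 9 of 18 (median 0.01), and edgeR called 0 of them.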

How the data were processed

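The authors deposited UMI counts per gene and cell, made with Cell Ranger 7.1.0 on mm10 and split by sample tag, with no normalization. Each matrix went to the mouse of its leading tag, and tag counts were set aside. Members and gene lists were chosen with earlier results of these data known. Doublets were scored per pool with Scrublet (scanpy 1.11.5). Its automatic threshold marked 2 of 14160 whole-cell barcodes and 644 of 16700 mural cell-enriched ones. Because of the whole-cell pool, the top 5% of scores were marked in each pool instead. Clusters came from 2000 variable genes, 20 components, 15 neighbors and Leiden (leidenalg 0.10.2), after immunoglobulin, mitochondrial and sex-linked marker genes were left out. A cluster was called mixed when a marker of another class was among its 10 leading genes and its first gene was above 5 on the log2 scale, a threshold chosen after seeing the clusters. Folds of clusters used a pseudocount of 20 CPM.

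UMIs of the B cells of a mouse were summed over both pools and tested with edgeR 4.0.16 (R 4.3.3, filterByExpr, TMM, quasi-likelihood F test, Benjamini-Hochberg over all genes tested, threshold 0.05), checked with DESeq2 1.42.0 and tested on simulated data. SEs were derived from the F statistic. Shares used exact two-sided permutation tests over 4 mice. CPM values are not TMM-scaled. Named genes are the 10 each way (5 for the interaction) with the lowest unadjusted p at a mean of at least 20 CPM and genotypes that do not overlap, since 0 were called. Other genes come from the 30 lists or lead a cluster, the latter chosen after their values were seen. Of 32286 gene IDs, 32235 (99.8%) matched GENCODE vM21. The comparison of B cells between pools was not run, because each mural cell-enriched library held fewer than the minimum of 10 B cells.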

Additional observations from a re-analysis of the deposited data

How the results depend on the processing

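With 2 mice per genotype, the permutation tests cannot go below 0.333. In counts simulated with known changes edgeR called 7.61% of the 2-fold and 84.9% of the 4-fold changed genes. The simulation gave every gene the same dispersion, so it held no spread of dispersion between genes. Whether these shares hold for the real counts was not tested. Over the 8 main results, 66 of 85 alternatives kept the direction, or the count of called genes. For the 30 results on named genes 362 of 412 kept the direction without being called and 48 more kept it and were called. The named genes were picked from the same counts for a low p and genotypes that did not overlap. Their kept directions were thus largely set by that choice, and nothing is concluded from them. Sizes of the main results varied too. The Ighd-positive difference went from -5.85 to -0.0413 unthinned, the dividing one to 3.10 with at least 1 gene and the lambda one from -1.67 to -0.0108 without Tubb3-/- mouse 2. The count of called genes between genotypes was 108 with no filter on low counts and 0 to 64 with each mouse left out, and that of the interaction 92 with no filter, 1 without the mixed clusters and 0 to 84 with each mouse left out. A lone mouse in a genotype was then assumed to vary like the others. The difference in B cell share was -2.53 to 0.254 with each mouse left out (0.254 without WT mouse 1), that in B cells per T cell -0.295 to -0.103, in lambda share -5.21 to 1.87 (1.87 without WT mouse 1), in Ighd-positive share -7.37 to -4.33, in switched share -0.592 to 0 and in dividing share -1.997 to 2.07. The switched share difference was 0 under the stricter rule and with at least 5 heavy chain UMIs. The dividing share difference of 0.0358 turned to -0.0217 in whole-cell libraries only, -0.755 without doublets, -0.908 without the mixed clusters, -0.784 without WT mouse 1 and -1.997 without Tubb3-/- mouse 1. Limch1 (-0.42) and Lhfp (-0.19) turned under the stricter rule (3 Cd79a and 2 Ms4a1 UMIs). With the mouse number, which marks sex, as a replicate block, 0 genes were called, with 276 higher and 160 lower at an unadjusted p under 0.05, and the differences between mouse 1 and mouse 2 correlated at 0.149 between genotypes over 6054 genes. The settings without the mixed clusters and with no gene required to be at 0 were chosen after seeing the data. In each case the cause was not tested.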
